A study of Caenorhabditis elegans with 20 samples.

Results

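The F-box A genes (*fbxa*) are a family of *Caenorhabditis elegans* genes for proteins that pair an F-box with a second, family-specific domain. Members were taken by name, as every entry of the expression tables named *fbxa* followed by a number, and no measured value was used. This gave 197 of 19861 named genes, and 1 of these entries merges *fbxa-151* and *fbxa-78*. An F-box binds a Skp1-like adaptor, which joins it to a cullin and a RING protein in an SCF ubiquitin ligase, and the remainder of the F-box protein recruits the substrate to be ubiquitinated. The genome of *C. elegans* carries far more F-box genes than most animals, many of them in tandem groups, and substrates are unknown for nearly all. A pair of them, *fbxa-75* and *fbxa-158*, work with the cullin CUL-6 in the response to intracellular pathogens.

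The study profiled the somatic gonadal precursors Z1 and Z4 after 9.5 hr of feeding, and their daughters after 15 hr, beside dissociated but unsorted cells of whole larvae. Gonadal cells were collected by FACS through *rdIs4*, an integrated array in which the *ehn-3a* promoter drives Venus. All 8 groups carried *xol-1(y9)*. The 4 male groups were XX pseudomales of strain DZ683, *tra-2(ar221)*; *xol-1(y9)*; *rdIs4*, so that sex and the *tra-2* allele cannot be told apart. Gonadal cells of hermaphrodites at both times, and whole hermaphrodites at 15 hr, came from DZ685, *xol-1(y9)*; *rdIs4*, while whole hermaphrodites at 9.5 hr were *xol-1(y9)* animals without the array. Each early group was made of 3 samples and each late group of 2, which gives 20 samples. The deposited level is 1 FPKM value per gene and group, pooled over its samples, where FPKM is a fragment count normalised for transcript length and for the mapped fragments of the library. No spread between samples could therefore be computed, and depth per sample is unknown. The 2 times were normalised in separate runs and their values are set side by side only.

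The group labels held in the marker genes. Of 7 markers of gonadal precursors, 5 of the 6 that passed the filter described below were higher in gonadal cells, and their summed level was 378 to 834 FPKM in gonadal cells against 128 to 164 FPKM in whole animals. The remaining 2 did not follow, since *hnd-1* was under the filter and *tra-1* missed the threshold (adjusted p = 0.0596, limma). *ehn-3*, whose promoter marks the sorted cells, was at 10.7 (males) and 8.97 FPKM (hermaphrodites) in gonadal cells at 9.5 hr but at 2.08 and 0.287 FPKM at 15 hr, against 0.260 to 1.07 FPKM in whole animals. Of the other tissues, markers of muscle and neurons were lower in gonadal cells but not at 0. The 5 muscle markers summed to 129 to 314 FPKM in gonadal cells against 803 to 955 FPKM in whole animals, and the 5 neuronal markers to 250 to 365 FPKM against 994 to 1072 FPKM. Neither a share of cells nor an amount of RNA per cell can be read from such bulk values, because fewer cells of a type and less RNA per cell cannot be told apart.

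F-box A transcripts were fewer in kind but higher in sum in gonadal cells than in whole animals. Between 73 and 84 of the 197 members reached 1 FPKM in a gonadal group, against 99 to 153 in a whole-animal group. Their summed level was 1573 FPKM in gonadal cells of males and 1629 FPKM in those of hermaphrodites at 9.5 hr, and 1183 and 1369 FPKM at 15 hr. In whole animals it was 829 (males) and 1053 FPKM (hermaphrodites) at 9.5 hr, and 798 and 808 FPKM at 15 hr. All 4 gonadal sums thus lay above all 4 whole-animal sums, and the family held 0.151 to 0.235% of all FPKM in gonadal cells against 0.114 to 0.15% in whole animals.

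The sums rested on few genes. The 10 highest members carried 42.6 to 48.6% of the family's FPKM in gonadal cells and 32.3 to 40.7% in whole animals. Members at 10 FPKM or more numbered 29 to 35 in gonadal groups, and 19, 33, 18 and 23 in whole males and whole hermaphrodites at 9.5 hr and then at 15 hr. Of all genes 39.9 to 41.6% reached 10 FPKM in gonadal groups and 48.7 to 49.9% in whole animals, the opposite order. The median member stayed under 1 FPKM in every gonadal group (0.365 to 0.759 FPKM) and was at 1.00 to 1.80 FPKM in whole animals. The lower number of detected genes in gonadal cells was shared with the genome: 63 to 69% of all genes reached 1 FPKM there, against 73.1 to 90.4% in whole animals. By gene, 6 members were at 0 in all 8 groups, 169 reached 1 FPKM in at least 1 group, and 44 did so in all 8.

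**Figure D1:**
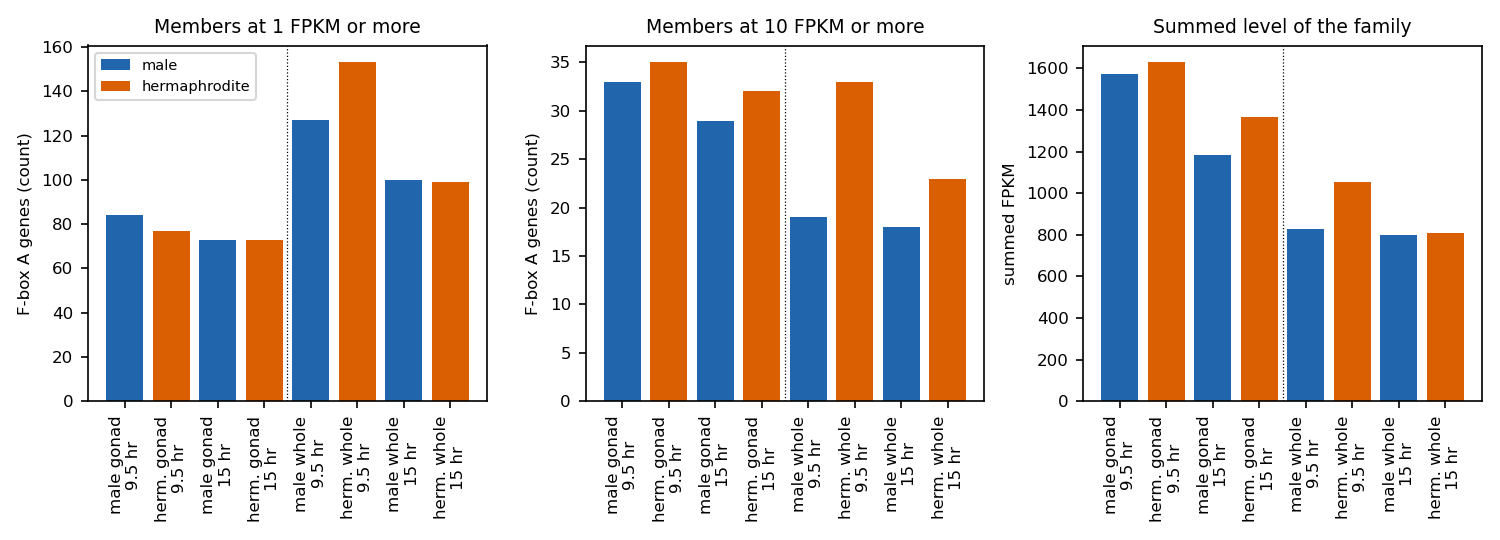
Each bar is 1 of the 8 groups, male in blue and hermaphrodite in orange, with gonadal cells to the left of the dotted line and whole animals to the right. The panels give the number of the 197 F-box A genes at 1 FPKM or more, the number at 10 FPKM or more, and the summed FPKM. Gonadal groups have fewer members at 1 FPKM (73 to 84 against 99 to 153) and larger sums (1183 to 1629 against 798 to 1053 FPKM).

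Gonadal cells were compared with whole animals by a log2 ratio of FPKM, with 1 FPKM added to both values, in each sex at each time. The 4 ratios of a gene use no sample in common, and limma tested whether their mean differed from 0, with Benjamini-Hochberg adjustment over all 15213 genes whose mean over the 8 groups was at least 1 FPKM. The standard error (SE) is that of the mean over these 4 contrasts, and measures how far the difference was shared by sexes and times, not the spread between samples. Of the members, 106 (53.8%) passed this filter, against 76.6% of all genes, and none of the 91 under it exceeded 2.82 FPKM in any group. A member that passed through its level in 1 tissue alone had to differ, so the counts below describe the members that passed and not the whole family. By the authors' own flag, 42 of the 106 had enough reads for a comparison at neither time.

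Of the 106 members, 36 were higher in gonadal cells, where 30.3% of all genes tested were higher, and 39 were lower, where 38.9% of all genes were lower. These shares are near the background. The median member had a mean log2 ratio of 0.01, which turned to -0.26 when ratios were centred on genes with a mean of at least 10 FPKM, whose own medians lay at 0.20 to 0.36 in the 4 contrasts. Both measures followed the filter on low values: the median was -0.37 with no filter and 1.06 with a mean of at least 5 FPKM, and the 39 lower members became 62 and 8.

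The stronger members were mostly higher in gonadal cells. Among members with a mean of at least 10 FPKM, 27 of 32 were higher in gonadal cells, where 43.6% of all genes at that level were higher, and 2 of 32 were lower (*fbxa-95* and *fbxa-114*), against 29.4% of genes. From 20 FPKM upward 18 of 21 members were higher and 0 were lower, beside 49.3% and 23.8% of genes. From 10 to 20 FPKM 9 of 11 were higher, beside 17.5% of genes. Below 5 FPKM the members were near the background. From 1 to 2 FPKM 1 of 33 was higher and 15 were lower, beside 2.94% and 50.7% of genes, and from 2 to 5 FPKM 3 of 27 were higher and 15 lower, beside 7.29% and 56.8%. From 5 to 10 FPKM 5 of 14 were higher and 7 lower, beside 11.4% and 58.7%. This mean includes the gonadal groups, so the difference itself helps to place a member in a class. With the level taken in whole animals alone, a choice made after seeing the data, 22 members had at least 10 FPKM, of which 14 were higher and 5 lower, beside 38.5% and 35.6% of genes. The ratios of all genes also narrowed with level, from an SD over genes of 1.58 at 20 to 50 FPKM to 0.35 from 400 FPKM upward, and no gene exceeded 1975 FPKM in any group. The level classes were chosen with earlier results of these data known, and no test was made of these shares.

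**Figure D2:**
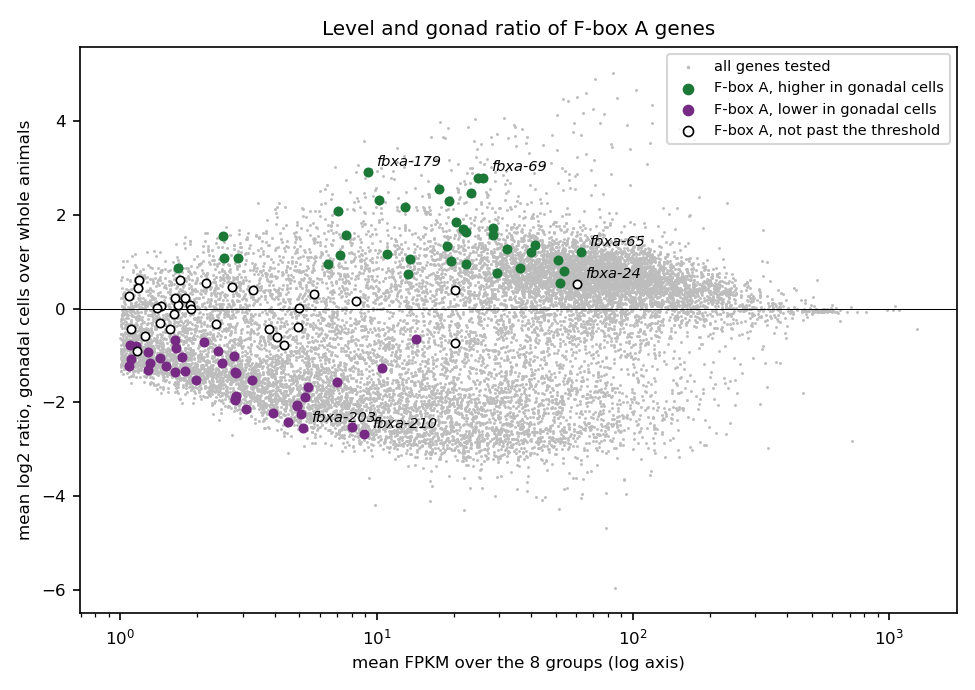
Each point is a gene, placed by its mean FPKM over the 8 groups (log axis) and its mean log2 ratio of gonadal cells over whole animals. Grey points are the 15213 genes tested, green, purple and open points the 106 F-box A genes that were higher, lower or not past the threshold. From 20 FPKM upward 18 of 21 members are green and 0 are purple, while of all genes at that level 49.3% were higher and 23.8% lower. The mean FPKM includes the gonadal groups.

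The members with the largest rise in gonadal cells have no assigned substrate. *fbxa-179* on chromosome X (ce10, chrX:14411348-14412576) was at 21.4 FPKM in gonadal cells of males and 17.3 FPKM in those of hermaphrodites at 9.5 hr, and at 10.8 and 18.6 FPKM at 15 hr. In whole animals it stood at 1.56 and 3.03 FPKM at 9.5 hr, and at 0.383 and 1.03 FPKM at 15 hr. The lowest gonadal value thus exceeded the highest whole-animal value, with a mean log2 ratio of 2.92 (SE 0.29, n = 4 contrasts, adjusted p = 0.000261, limma).

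*fbxa-72* (chrV:674912-676754) showed the same order. It was at 51.9, 50.4, 40.0 and 33.5 FPKM in gonadal cells of males and hermaphrodites at 9.5 hr and then at 15 hr, against 3.94, 4.45, 8.30 and 5.93 FPKM in the matching whole animals. Its mean log2 ratio was 2.78 (SE 0.29, adjusted p = 0.000291, limma). These 2 genes alone among the members passed a log2 ratio of 2, with 1 FPKM added, in all 4 contrasts, as did 0.769% of all genes tested. With no FPKM added, a choice made after seeing the data, 4 members did so (*fbxa-69* and *fbxa-143* as well), beside 1.05% of genes.

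*fbxa-69* (chrV:15814214-15815842) reached the highest ratio of any member in a single contrast. In gonadal cells it was at 99.7 (males) and 45.5 FPKM (hermaphrodites) at 9.5 hr, and at 35.6 and 8.01 FPKM at 15 hr. Whole animals held 7.46 and 7.70 FPKM at 9.5 hr, and 3.02 and 1.26 FPKM at 15 hr. The mean log2 ratio was 2.79 (SE 0.32, adjusted p = 0.00037, limma), and it ran from 1.998 in hermaphrodites at 15 hr to 3.57 in males at 9.5 hr.

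The next 3 members completed the largest changes upward. *fbxa-120* was at 19.2 to 52.8 FPKM in gonadal cells and 2.92 to 5.67 FPKM in whole animals (mean log2 ratio 2.55, SE 0.28). *fbxa-83* was at 18.3 to 56.5 FPKM against 5.18 to 7.54 FPKM (2.46, SE 0.29). *fbxa-143* was at 31.6 and 31.7 FPKM in male and hermaphrodite gonadal cells at 9.5 hr and at 6.02 and 4.56 FPKM at 15 hr, against 0.751 to 3.48 FPKM in whole animals (2.32, SE 0.37). For each of the 3 the ranges of gonadal and whole-animal groups did not overlap. They were picked by their ratios, and the share of all genes without overlap was not counted. Higher in all 4 contrasts, a looser measure, were 33.2% of all genes tested.

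Counted in 1 contrast at a time, which was not tested here because a pooled value carries no spread between samples, members past a log2 ratio of 2 upward were 11 of 106 for males and 12 for hermaphrodites at the earlier time, and 6 and 8 at the later. The background shares of genes past this cutoff were 3.15%, 2.61%, 2.84% and 3.05% in the same order, against 10.4%, 11.3%, 5.66% and 7.55% of members. Downward the members numbered 3, 15, 5 and 12, or 2.83%, 14.2%, 4.72% and 11.3%, beside 13.4%, 15.3%, 15.3% and 22.2% of genes. In each contrast the share of members lay above the background upward and below it downward, a difference that was not tested. The counts move with the pseudocount: over the 4 contrasts the 35 downward become 97 with 0.1 FPKM added and 2 with 5 FPKM added, and the 37 upward become 13 with 5 FPKM added. The shares of all genes at these pseudocounts were not counted. The comparison with the background in single contrasts is thus known only with 1 FPKM added.

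The most abundant members were high in both tissues. *fbxa-65* was at 75.3 to 96.5 FPKM in gonadal cells and 33.5 to 41.0 FPKM in whole animals, a mean log2 ratio of 1.202 (SE 0.15, adjusted p = 0.000521, limma). *fbxa-64*, also on chromosome V, was at 57.2 to 80.0 FPKM against 32.6 to 43.9 FPKM (0.80, SE 0.18, adjusted p = 0.00597, limma). *fbxa-67* was at 50.1 to 73.1 FPKM against 39.7 to 48.6 FPKM, and its ratio of 0.54 (SE 0.16, adjusted p = 0.0165, limma) lost the call when ratios were centred (adjusted p = 0.121) or when hermaphrodites at 9.5 hr were left out (adjusted p = 0.062).

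*fbxa-1* on chromosome III had its highest values at 15 hr. In gonadal cells it was at 38.5 (males) and 49.3 FPKM (hermaphrodites) at 9.5 hr and at 106 and 90.3 FPKM at 15 hr, while whole animals stayed at 28.8 to 33.1 FPKM in all 4 groups. Its mean log2 ratio was 1.04 (SE 0.25, adjusted p = 0.00758, limma). *fbxa-24* on chromosome II had the highest single value of the family, 133 FPKM in male gonadal cells at 9.5 hr. Hermaphrodite gonadal cells held 101 FPKM of it at 9.5 hr, and at 15 hr males and hermaphrodites held 57.0 and 16.1 FPKM. Whole animals held 61.4 and 55.3 FPKM at 9.5 hr and 35.2 and 24.05 FPKM at 15 hr. Its mean log2 ratio of 0.53 (SE 0.27) did not pass (adjusted p = 0.122, limma). Hermaphrodite gonadal cells at 15 hr were the 1 gonadal group below its whole animals, and without that contrast the gene passed (adjusted p = 0.00673).

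**Figure D3:**
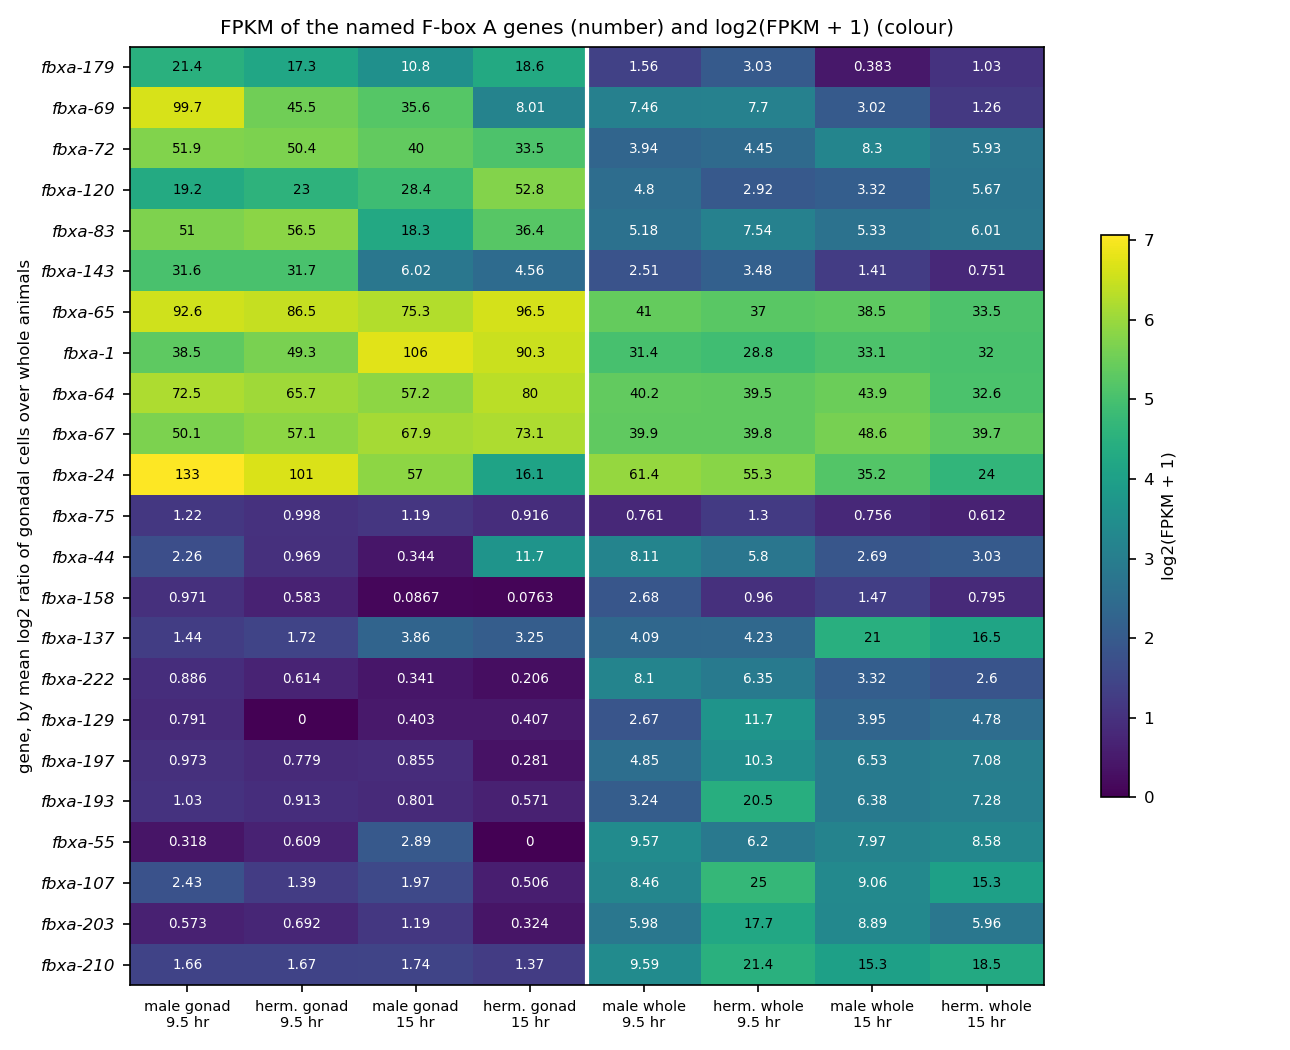
Rows are the 23 named F-box A genes, ordered by the mean log2 ratio of gonadal cells over whole animals, and columns are the 8 groups, with gonadal cells left of the white line. The number in a cell is the FPKM and the colour is log2(FPKM + 1). *fbxa-179*, *fbxa-69* and *fbxa-72* head the rows and *fbxa-210*, *fbxa-203* and *fbxa-107* close them.

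The members with the largest falls in gonadal cells held at most 2.89 FPKM there. *fbxa-210* (chrV:18125691-18127177) was at 1.66, 1.67, 1.74 and 1.37 FPKM in gonadal cells of males and hermaphrodites at 9.5 hr and then at 15 hr, against 9.59, 21.4, 15.3 and 18.5 FPKM in whole animals. The mean log2 ratio was -2.67 (SE 0.30, adjusted p = 0.000335, limma), the largest fall in the family. *fbxa-203*, a pseudogene by its RefSeq class, was at 0.324 to 1.19 FPKM against 5.96 to 17.7 FPKM (-2.55, SE 0.31), and was the 1 member past a log2 ratio of -2, with 1 FPKM added, in all 4 contrasts, beside 6.38% of genes. With no FPKM added 9 members were, *fbxa-210* and *fbxa-197* among them, beside 11.4% of genes.

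Another 4 members, *fbxa-193* among them, had falls of similar size, and in each the highest gonadal value was below the lowest whole-animal value. The share of all genes with such a gap was not counted. Lower in all 4 contrasts, a looser measure, were 40% of all genes tested. *fbxa-107* was at 0.506 to 2.43 FPKM in gonadal cells and 8.46 to 25.01 FPKM in whole animals (mean log2 ratio -2.53, SE 0.42). *fbxa-55* was listed at 0 in hermaphrodite gonadal cells at 15 hr and at 0.318 to 2.89 FPKM in the other gonadal groups, against 6.20 to 9.57 FPKM in whole animals (-2.41, SE 0.38). *fbxa-197* was at 0.281 to 0.973 FPKM against 4.85 to 10.3 FPKM (-2.23, SE 0.29).

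*fbxa-193* (chrV:17653456-17655255) is listed as a pseudogene in RefSeq. It was at 1.03 and 0.913 FPKM in male and hermaphrodite gonadal cells at 9.5 hr and at 0.801 and 0.571 FPKM at 15 hr. Whole animals held 3.24 (males) and 20.5 FPKM (hermaphrodites) at 9.5 hr, and 6.38 and 7.28 FPKM at 15 hr. The ratio was negative in all 4 contrasts, with a mean log2 of -2.25 (SE 0.40, adjusted p = 0.00221, limma), and lay between -3.49 and -1.06.

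Another 3 members were among the 2 lowest of a single contrast. *fbxa-129*, also a pseudogene by class, was listed at 0 in hermaphrodite gonadal cells at 9.5 hr and at 0.403 to 0.791 FPKM in the other gonadal groups, against 2.67 to 11.7 FPKM in whole animals. *fbxa-222* was at 0.206 to 0.886 FPKM against 2.60 to 8.10 FPKM. *fbxa-137* was at 1.44 to 3.86 FPKM in gonadal cells, while whole animals held 4.09 and 4.23 FPKM at 9.5 hr and 21.0 and 16.5 FPKM at 15 hr. All 3 were lower in gonadal cells by limma, with mean log2 ratios of -2.14, -1.93 and -1.56. How far RNA of other tissues, whose markers remained measurable in gonadal cells, enters these low gonadal values was not tested.

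Position on the chromosomes was examined because F-box genes lie in tandem groups. The tables place 80 members on chromosome V (40.6% of members, 25% of all genes) and 68 on chromosome III (34.5% against 13.3%), with 19 on II, 17 on X, 7 on I and 6 on IV. When members at most 10 kb apart were joined, 132 fell in 30 runs and 65 stood alone. The largest run held 26 members on chromosome III (ce10, chrIII:1236007-1323689), of which 15 passed the filter. Of these, 4 were higher in gonadal cells and 4 lower, beside 30.3% and 38.9% of all genes tested. Members of 1 run can share sequence, and how reads that match several copies were divided was not given in the sources used here, so the values of close copies are uncertain.

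Neighbours in a run tended to have like ratios. The 35 adjacent pairs of members that passed differed by a median of 0.61 in mean log2 ratio, against 1.398 over all 5565 pairs of members, and of the 19 adjacent pairs in which both genes were called, 17 were called the same way. These pairs are not independent of each other and no test was made. Neighbouring genes outside the family were not examined, so the likeness cannot be called particular to F-box A genes. The runs named next were chosen after their values were seen.

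In 2 runs of at least 3 members, both on chromosome V, every member was lower in gonadal cells. The first (chrV:17640702-17658137) holds *fbxa-192*, *fbxa-193*, *fbxa-129* and *fbxa-108*, with mean log2 ratios of -0.91, -2.25, -2.14 and -2.06. The second (chrV:18123949-18128853) holds *fbxa-107*, *fbxa-210* and *fbxa-211*, at -2.53, -2.67 and -1.85. Elsewhere on the chromosome *fbxa-188* and *fbxa-189* (within chrV:17331615-17351294) were higher, at 1.58 and 2.08, as were *fbxa-143* and *fbxa-144* (within chrV:16125792-16144633), at 2.32 and 0.88, while *fbxa-142* between them was at 0.60 and did not pass (adjusted p = 0.0672, limma).

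By RefSeq class 169 members are protein coding, 27 are pseudogenes and the merged entry had no match. Pseudogenes were weaker, with a median of 0.498 FPKM against 1.39 FPKM for the coding members. Of the 27, 11 passed the filter, and the strongest, *fbxa-97*, had a mean of 22.2 FPKM over the 8 groups. Of these 11, 3 were higher and 5 lower in gonadal cells, beside 30.3% and 38.9% of all genes tested. These few genes are near the background.

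Differences between the sexes were asked of the family in the same way, with 4 ratios of male over hermaphrodite per gene (gonadal cells and whole animals at each time). limma called 0 members and 0% of all genes after adjustment, and 0 members in each alternative run. At an unadjusted p under 0.05 there were 5 members higher and 9 lower in males, beside 5.21% and 3.81% of genes. Sex bias that differs between tissues or times cannot appear in this mean, so each contrast was also counted alone at a log2 ratio of 2.

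In gonadal cells few members differed between the sexes. At 9.5 hr 0 members were past the cutoff in either direction, beside 0.401% of genes higher in males and 0.256% higher in hermaphrodites. At 15 hr 1 member, *fbxa-69*, was past it in males and 1, *fbxa-44*, in hermaphrodites, beside 1.24% and 0.986% of genes. *fbxa-69* stood at 35.6 (males) and 8.01 FPKM (hermaphrodites), a log2 ratio of 2.02 that fell to 1.95 and 1.96 when values were rescaled or ratios centred. Over all 4 contrasts of sex the counts past the cutoff, 1 toward males and 2 toward hermaphrodites, became 7 and 10 with 0.1 FPKM added and 0 and 0 with 5 FPKM added.

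*fbxa-69* was the higher in male gonadal cells at 9.5 hr as well, at 99.7 against 45.5 FPKM, a log2 ratio of 1.12. In whole animals its ratio was -0.04 at 9.5 hr and 0.83 at 15 hr. Over the 4 contrasts the mean was 0.98 (SE 0.32, unadjusted p = 0.0186, adjusted p = 0.526, limma), so that the gene did not pass.

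For *fbxa-44* (chrV:16889264-16890664) the order of the sexes was not the same at both times, a change that was not tested. In gonadal cells it was at 2.26 (males) and 0.969 FPKM (hermaphrodites) at 9.5 hr, and at 0.344 and 11.7 FPKM at 15 hr. Whole animals held 8.11 and 5.80 FPKM at 9.5 hr and 2.69 and 3.03 FPKM at 15 hr. The log2 ratio of male over hermaphrodite in gonadal cells at 15 hr was -3.24, the largest of any member in a contrast of sex. Hermaphrodite gonadal cells at 15 hr were also the 1 gonadal group above its whole animals (log2 ratio 1.65, against -1.79 to -1.46 in the other 3 contrasts), and the gene had no shared direction between tissues (mean -0.77, SE 0.57, adjusted p = 0.264, limma). Without that contrast it was lower in gonadal cells (adjusted p = 0.00595). That group also had the lowest sum of gonadal precursor markers, 378 FPKM, against 652 to 834 FPKM in the other 3 gonadal groups. The markers did not move as one. *tra-1* was at 57.9 FPKM there and 202.5 FPKM in male gonadal cells at 15 hr, and *fkh-6* at 14.9 and 72.8 FPKM. In the same order *ehn-3* was at 0.287 and 2.08 FPKM, *gem-4* at 69.2 and 84.9 FPKM, and *ckb-3* at 155 and 217 FPKM. Only *lin-26* (80.5 and 73.1 FPKM) and *hnd-1* (0.265 and 0 FPKM), which was under the filter, went the other way. Of the 3 pharyngeal markers, *pha-4*, a transcription factor, was at 159 FPKM there against 14.5 to 16.1 FPKM in the other gonadal groups, while the pharyngeal muscle genes *myo-2* and *tnt-4* were at 16.2 and 28.2 FPKM, against 19.4 to 33.5 and 20.1 to 31.2 FPKM. Muscle markers summed to 314 (males) and 129 FPKM (hermaphrodites) in gonadal cells at 15 hr. The part of these differences in the values of *fbxa-44*, *fbxa-69* and other members at 15 hr was not tested.

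A few members lay between a 2-fold and a 4-fold difference at 15 hr in gonadal cells, 7 toward males and 5 toward hermaphrodites when those past 4-fold are included, or 6.6% and 4.72% of the 106, beside 8.21% and 4.3% of genes. These shares are near the background. The genes given next were chosen after their values were seen. *fbxa-24* was at 57.0 (males) and 16.1 FPKM (hermaphrodites). *fbxa-189* was at 7.72 and 1.63 FPKM, and its neighbour *fbxa-188* at 3.97 and 1.48 FPKM. At 9.5 hr, when 4 members were past 2-fold toward males and 7 toward hermaphrodites (3.25% and 2.31% of genes), the log2 ratios of these 3 genes in gonadal cells lay between -0.05 and 0.39. *fbxa-47* went toward hermaphrodites, at 1.11 (males) and 6.59 FPKM (hermaphrodites) at 15 hr, and at 0.140 and 0.637 FPKM at 9.5 hr.

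**Figure D4:**
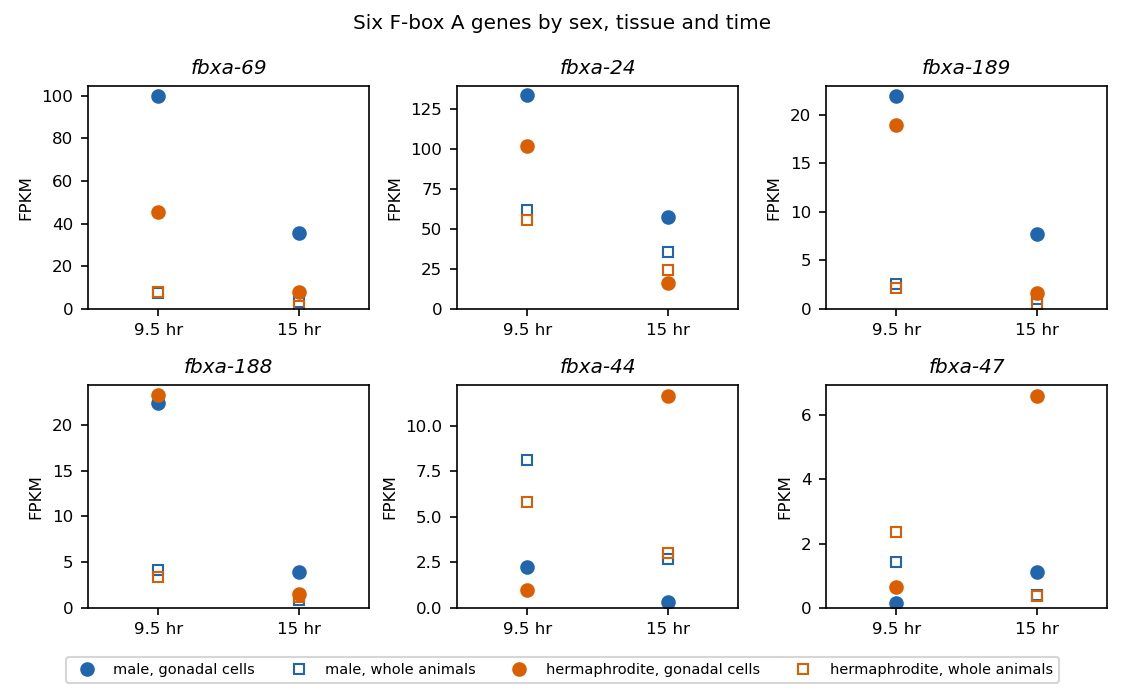
Each panel is a gene, with FPKM on a linear axis from 0 at 9.5 and 15 hr, males in blue and hermaphrodites in orange, gonadal cells as filled circles and whole animals as open squares. At 15 hr the male gonadal value is the higher for *fbxa-69* (35.6 against 8.01 FPKM), *fbxa-24*, *fbxa-189* and *fbxa-188*, and the hermaphrodite value for *fbxa-44* (11.7 against 0.344 FPKM) and *fbxa-47*.

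In whole animals at 9.5 hr a group of members had more FPKM in hermaphrodites, in a contrast of 2 pooled values that was not tested here. At the 4-fold cutoff 0 members were past it toward males (0.401% of genes) and 1 toward hermaphrodites (0.5% of genes), which was *fbxa-193*, at 3.24 (males) and 20.5 FPKM (hermaphrodites), a log2 ratio of -2.34. At a 2-fold cutoff 0 members were past it toward males, beside 2.09% of genes, and 19 of 106 (17.9%) toward hermaphrodites, beside 3.5% of genes. The median over the 106 members was -0.14 on the log2 scale, beside -0.03 over all genes, and 67 of them were below 0.

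Of these 19 members 14 lie on chromosome V, and they include all 7 members of the pair of runs described above. *fbxa-107* was at 8.46 (whole males) and 25.01 FPKM (whole hermaphrodites), *fbxa-108* at 5.85 and 18.8 FPKM, *fbxa-129* at 2.67 and 11.7 FPKM, and *fbxa-211* at 2.95 and 9.93 FPKM. By the comparison of tissues 16 of the 19 were lower and 1 was higher in gonadal cells, beside 38.9% and 30.3% of all genes tested. Whole hermaphrodites at 9.5 hr enter both comparisons, and a high value there lowers both ratios. The comparisons are therefore not independent, and members picked by the one are favoured to be lower in the other.

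At 15 hr the same 19 members had log2 ratios of males over hermaphrodites from -0.87 to 0.51 with a median of -0.26, and 15 were below 0. They were chosen by their values at 9.5 hr, and the difference between the times was not tested. At 4-fold 0 members were past the cutoff in either direction, beside 0.23% of genes toward males and 0.46% toward hermaphrodites. At 2-fold 1 of the 106 members, *fbxa-184*, was past it toward males and 0 toward hermaphrodites, beside 1.57% and 3.19% of genes. *fbxa-193* itself stood at 6.38 (males) and 7.28 FPKM (hermaphrodites).

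Several facts stand beside the difference at 9.5 hr. Whole hermaphrodites at 9.5 hr were the 1 group without *rdIs4*, and at that time the array and the sex cannot be told apart. The group had 153 members at 1 FPKM or more, against 127 in whole males, and 90.4% of all genes at that level against 82.2%. The most common low value also differed. Low values, above 0 and under 0.5, were taken from genes with 1 transcript. Their most common product of FPKM and length in kb was 0.495 in this group, with 5.95% of only 252 values. It lies next to the limit of 0.5, and whether it marks a step of the values was not tested. The most common product was 0.335 in whole males at 9.5 hr (4.62% of 693 values). In the other groups, with 1633 to 2339 values each, it was 0.055 to 0.125. The 5 germline markers, none of which was at 0, summed to 65.9 (whole males) and 98.1 FPKM (whole hermaphrodites), and all 5 were higher in hermaphrodites, by 0.33 to 0.74 on the log2 scale. At 15 hr they summed to 126 and 153 FPKM. The 5 neuronal markers were level at 9.5 hr, at 1046 and 1072 FPKM, and of 5 hypodermal markers the collagen gene *dpy-7* was at 68.4 (males) and 26.8 FPKM (hermaphrodites), with log2 ratios of -0.32 to 0.41 for the other 4. The part of germline RNA, of the array or of sequencing depth in the result was not tested.

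**Figure D5:**
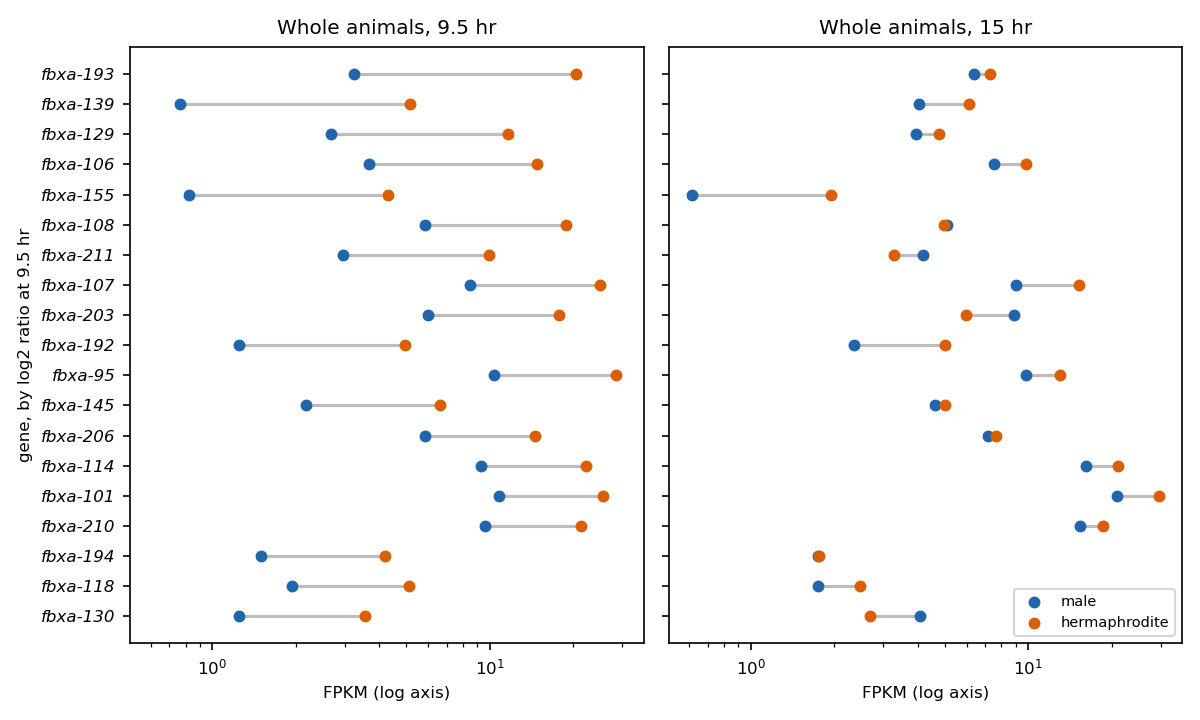
Rows are the 19 F-box A genes that were at least 2-fold higher in hermaphrodites, with 1 FPKM added to each value, in whole animals at 9.5 hr, with FPKM on a log axis at 9.5 hr (left) and 15 hr (right), males in blue and hermaphrodites in orange. *fbxa-193* is at 3.24 and 20.5 FPKM at 9.5 hr and at 6.38 and 7.28 FPKM at 15 hr.

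The partners of F-box proteins were read from lists chosen for their role in ubiquitin ligases. Of 10 SCF core genes 6 were higher in gonadal cells and 1, the adaptor *skr-2*, was lower, beside 30.3% and 38.9% of all genes tested. All 10 had a mean above 20 FPKM, and of all genes from 20 FPKM upward 49.3% were higher and 23.8% lower. The share of higher SCF core genes is thus near that of genes of like level. The cullin *cul-1* was at 63.3 to 98.8 FPKM in gonadal cells and 46.5 to 54.9 FPKM in whole animals, a mean log2 ratio of 0.64 (SE 0.16, adjusted p = 0.0089, limma). Of 20 Skp1-related genes 15 passed the filter, 5 were higher and 3 lower.

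RNA of *cul-6*, the gene of the cullin that works with FBXA-75 and FBXA-158, was higher in gonadal cells in all 4 contrasts. The gene was at 17.7 and 25.5 FPKM in male and hermaphrodite gonadal cells at 9.5 hr and at 20.3 and 39.0 FPKM at 15 hr. Whole animals held 3.06 to 6.70 FPKM. The mean log2 ratio was 2.17 (SE 0.27, adjusted p = 0.000529, limma). The adaptor *skr-3* was higher too (0.61, SE 0.13), *skr-5* was lower (-1.09, SE 0.28), and *skr-4* was at 0.92 and did not pass (adjusted p = 0.132, limma). The other 4 genes listed for this pathway had no entry under the names used and could not be analysed. The F-box partners themselves were near the limit of detection: *fbxa-75* was at 0.612 to 1.30 FPKM and *fbxa-158* at 0.0763 to 2.68 FPKM over the 8 groups, and neither reached a mean of 1 FPKM.

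Genes of F-box proteins with assigned functions and names other than *fbxa* did not share one direction. Of 9 such genes in the tables *lin-23*, a negative regulator of cell division, and *skpt-1* were higher in gonadal cells. The heterochronic gene *dre-1*, *fog-2*, which hermaphrodites need to make sperm, and its relative *ftr-1* were lower. The shares were 22.2% higher and 33.3% lower, beside 30.3% and 38.9% of all genes tested. *ftr-1* was at 1.53 to 2.62 FPKM in gonadal cells, and whole animals held 7.98 (males) and 15.3 FPKM (hermaphrodites) at 9.5 hr and 10.9 and 13.1 FPKM at 15 hr. *fog-2* was at 3.90 (whole males) and 10.8 FPKM (whole hermaphrodites) at 9.5 hr and at 9.56 and 11.8 FPKM at 15 hr.

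Set beside related families, F-box A genes were the most numerous and had the largest share of members that passed the filter of the 3 F-box families. Of 110 F-box B genes 30 passed the filter, of which 7 (23.3%) were higher and 8 (26.7%) lower in gonadal cells. Of 50 F-box C genes 23 passed, of which 14 (60.9%) were higher and 4 (17.4%) lower. Of 86 genes of the MATH families, some of which encode substrate adaptors of another cullin, 52 passed. Of these 7 (13.5%) were higher and 36 (69.2%) lower. Among F-box A genes the shares were 34% and 36.8%, and among all genes tested 30.3% and 38.9%. The summed level of F-box C genes, as that of F-box A genes, was above whole animals in all 4 gonadal groups, at 425 to 567 FPKM against 156 to 215 FPKM. Differences between families were not tested.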

How the data were processed

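RNA was sequenced from 20 samples in 8 groups. After ribosomal depletion and TruSeq preparation without poly-A selection, the authors mapped single-end reads with TopHat 1.4.1 to ce10 (WS220), and ran Cuffdiff 2.1.1 separately at each time. The submitters' processing notes also name CASAVA 1.8 and Picard 1.56 without their role, and whether duplicate reads were removed, which would lower the highest values, is not given in the sources used here. The deposited tables give 1 pooled FPKM for each gene and group, with no value of a single sample. Their fold changes and p- and q-values were not used. Group totals were 692941 to 784031 FPKM. FPKM could not be turned back into reads, so depth is unknown and no counting interval is given.

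Ratios were log2((FPKM + 1)/(FPKM + 1)). limma 3.58.1 (R 4.3.3), with a trend on level, was tested on simulated data and fitted across the 15213 genes with a mean of at least 1 FPKM; the tests are two-sided, with a threshold of 0.05 on the adjusted p. Single contrasts, of 2 pooled values, were not tested here. Alternatives were pseudocounts of 0.1 and 5 FPKM, no filter or a mean of at least 5 FPKM, rescaled and centred values, limma without the trend, leaving out each contrast, and a log2 cutoff of 1.

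Members and lists were chosen with earlier results of these data known. Named genes (23) were *fbxa-69* and *fbxa-193*, up to 6 with the largest changes each way in each limma test, the 2 highest and 2 lowest past a log2 ratio of 2 in each contrast, the 5 of highest mean level in each tissue, and *fbxa-75* and *fbxa-158*. Marker lists covered gonadal precursors (5 of 6 higher), muscle (5 of 5 lower), intestine (4 of 5 lower), neurons (5 of 5 lower), hypodermis (1 higher and 2 lower of 5), pharynx (2 of 3 lower), germline (3 of 4 lower) and coelomocytes (2 of 2 lower). Positions are those of the files, 1-based on ce10, and gene classes were matched by symbol to RefSeq.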

Additional observations from a re-analysis of the deposited data

How the results depend on the processing

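No paired analysis was possible because each group has 1 pooled value, and for the same reason no sample could be left out. Of 21 named genes tested between gonadal cells and whole animals, none changed direction under any alternative, and 222 of 226 values kept their side of the threshold, with 4 exceptions in *fbxa-67*, *fbxa-24* and *fbxa-44*. The count of members lower in gonadal cells, 39, became 62 with no filter on low values and 8 with a mean of at least 5 FPKM, which test more and fewer members. The shares of all genes were not counted beside these values. The counts of higher members stayed within 1.5 times of 36 (29 to 38), and leaving out a contrast gave 30 to 36 higher and 33 to 36 lower. The median log2 ratio of 0.01 became -0.37 with no filter, 1.06 with a mean of at least 5 FPKM and -0.26 when centred.

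Among members with a mean of at least 10 FPKM, a count chosen after seeing the data, 27 of 32 higher became 23 when centred (beside 29.2% of genes) and 24 to 27 when a contrast was left out. The 2 lower members became 1 with a pseudocount of 5 FPKM and 1 with a mean of at least 5 FPKM, and 1 to 2 without a contrast. With the level taken in whole animals alone, also after seeing the data, 14 of 22 members were higher and 5 lower, beside 38.5% and 35.6% of genes. With it taken in gonadal cells alone 31 of 35 were higher and 1 lower, beside 52% and 16.9% of genes. Choosing members by a high gonadal level favours those higher there, so this last count is no check on the 27 of 32. Members past a log2 ratio of 2, summed over the 4 contrasts, were 37 upward and 35 downward in gonadal cells. Upward this became 13 with a pseudocount of 5 FPKM, 24 when centred and 108 at a cutoff of 1. Downward it became 97 and 2 with pseudocounts of 0.1 and 5 FPKM, 16 with a mean of at least 5 FPKM, 58 when centred and 128 at a cutoff of 1. Between the sexes 1 was past the cutoff toward males and 2 toward hermaphrodites. Toward males this became 7 and 0 with pseudocounts of 0.1 and 5 FPKM, 0 when centred and 12 at a cutoff of 1. Toward hermaphrodites it became 10 and 0 with these pseudocounts, 1 with a mean of at least 5 FPKM, 4 when rescaled to a common sum and 31 at a cutoff of 1. The cause of these moves was not tested, and the shares of all genes were not counted beside these sums over 4 contrasts. No depth per sample was known, so differences among members near 1 FPKM cannot be told from counting error.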
